A study of Mus musculus with 4 samples.

Results

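The genes described here are 50 immediate early, AP-1 and heat shock genes of the mouse. A gene entered by its symbol in a fixed list, and a row of the value table counted for it where the platform's annotation gave that row this gene and no other. So found were 49 of the 50, among 19935 genes named in all; Hspa1b shared its row with Hspa1a and was not measured by itself. By role the measured genes were 9 of AP-1, 7 of the Egr and Nr4a families, 7 feedback regulators, 5 Klf factors, 12 other immediate early genes and 9 heat shock genes.

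The arrays held RNA of bulge stem cells, which renew the hair follicle, taken after CSA (2 arrays) or vehicle (2 arrays). CSA is not spelled out by the labels; in calcineurin research it stands for cyclosporine A, an inhibitor of that phosphatase. All mice were CD-1 males 56 days old, when hair follicles rest in their second telogen, and injections into the peritoneum ran for 3 days, with CSA at 100 mg/kg. All cells were sorted from skin by CD34 together with alpha6 integrin, and neither the number of mice per sample nor any batch behind the replicate numbers is stated.

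Immediate early genes are transcribed within minutes of a stimulus, from factors already in the cell, and their mRNAs are short-lived. Growth factor signals reach them through the ERK kinases and serum response factor, calcium through CREB, MEF2 and calcineurin. Their products include the Fos and Jun proteins, which pair as the transcription factor AP-1, and the phosphatases and RNA-decay proteins that end the response. Heat shock genes encode chaperones and answer to heat shock factor 1 when proteins unfold. In skin both kinds of genes are known to react to wounding, stress and the dissociation of tissue.

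Promoter sequences were at hand for 39 of the 50 genes, from RefSeq on GRCm38.p6, each window covering 250 bases before to 50 bases after a gene's start. Shown first are those of genes whose CSA and vehicle groups stood at least 1.5-fold apart without overlap. That of Fos, the namesake of the family, follows and was added after its values had been seen. The windows lie at chr7:45526219-45526518 on the minus strand for Ppp1r15a, and on the plus strand at chr13:51846425-51846724 for Gadd45g, chr1:150099781-150100080 for Ptgs2, chr10:99262981-99263280 for Dusp6 and chr12:85473640-85473939 for Fos. They are written 5′ to 3′ on the gene's strand, and capitals mark each match of the motifs searched. Ier2 and Klf10 belong to the same set and are named only.
Ppp1r15a: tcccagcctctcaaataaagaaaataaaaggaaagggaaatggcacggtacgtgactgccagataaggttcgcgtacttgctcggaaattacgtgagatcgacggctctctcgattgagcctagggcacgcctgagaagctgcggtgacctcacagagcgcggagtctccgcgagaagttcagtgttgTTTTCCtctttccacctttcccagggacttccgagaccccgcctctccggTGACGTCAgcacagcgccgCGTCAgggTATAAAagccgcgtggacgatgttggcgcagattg
Gadd45g: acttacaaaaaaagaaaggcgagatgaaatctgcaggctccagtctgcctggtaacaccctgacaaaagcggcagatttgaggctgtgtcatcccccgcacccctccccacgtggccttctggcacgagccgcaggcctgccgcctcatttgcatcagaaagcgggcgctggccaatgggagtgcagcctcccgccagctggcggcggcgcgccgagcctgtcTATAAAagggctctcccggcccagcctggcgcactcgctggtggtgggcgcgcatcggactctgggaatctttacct
Ptgs2: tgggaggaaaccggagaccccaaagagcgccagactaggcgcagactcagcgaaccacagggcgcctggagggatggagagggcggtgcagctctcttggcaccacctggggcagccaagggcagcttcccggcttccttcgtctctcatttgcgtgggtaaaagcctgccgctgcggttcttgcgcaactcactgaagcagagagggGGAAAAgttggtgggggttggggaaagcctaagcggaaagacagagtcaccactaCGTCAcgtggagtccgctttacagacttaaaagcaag
Dusp6: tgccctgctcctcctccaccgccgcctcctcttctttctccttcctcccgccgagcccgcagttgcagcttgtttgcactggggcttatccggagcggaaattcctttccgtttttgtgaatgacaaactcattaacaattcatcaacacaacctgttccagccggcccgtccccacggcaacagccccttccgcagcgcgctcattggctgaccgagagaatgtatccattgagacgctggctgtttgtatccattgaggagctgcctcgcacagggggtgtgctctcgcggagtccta
Fos: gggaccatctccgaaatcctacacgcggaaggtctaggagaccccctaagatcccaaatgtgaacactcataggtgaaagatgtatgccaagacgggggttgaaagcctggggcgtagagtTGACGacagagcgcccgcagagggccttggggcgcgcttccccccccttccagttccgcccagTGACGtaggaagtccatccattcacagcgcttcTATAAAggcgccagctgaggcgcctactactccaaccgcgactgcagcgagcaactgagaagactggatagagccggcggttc

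The motifs, searched on both strands, were the CArG box of serum response factor, TGACGTCA (the cyclic AMP response element), TGACG (its core, which lies within it), TGANTCA for AP-1, GCGNGGGCG for Egr factors, GGAAAA for NFAT, TTCNNGAA for heat shock factors and TATAAA for the TATA box. TGACG was present in the windows of 25 of 39 genes (64.1%), against 26.2% of 17492 protein-coding genes and 20.8% of all windows. GCGNGGGCG was present for 13 of 39 (33.3%), against 8.51% of protein-coding genes and 5.55% of windows. The CArG box occurred for Dusp5, Egr2 and Zfp36 (7.69%, against 1.76% of protein-coding genes and 1.63% of windows). TGACGTCA occurred for Btg2, Dusp1, Maff and Ppp1r15a (10.3%, against 2.54% of protein-coding genes and 1.79% of windows).

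GGAAAA occurred for 6 of 39 genes (15.4%, against 25.3% of protein-coding genes and 23.4% of windows), Ptgs2, Egr2 and Ppp1r15a among them. TGANTCA occurred for Csrnp1 and Zfp36l1 (5.13%, against 8.12% of protein-coding genes and 7.81% of windows). TATAAA occurred for 8 genes (20.5%, against 14.8% of protein-coding genes and 13.6% of windows). TTCNNGAA was found for 3 of the 8 heat shock genes with a window (Dnajb4, Hspe1 and Hsph1) and for Egr2. These were 4 of 39 in all (10.3%, against 8.73% of protein-coding genes and 8.52% of windows). In the sequences above, with 0 at the first base of the annotated gene, Ppp1r15a had TGACGTCA at -12 to -5. GGAAAA lay at -42 to -37 in Ptgs2 and, on the opposite strand, at -62 to -57 in Ppp1r15a. TATAAA lay at -27 to -22 in Gadd45g and -33 to -28 in Fos, but after the annotated start, at 15 to 20, in Ppp1r15a. Such matches describe the letters of these windows and do not show binding.

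Values are on a log scale whose base the sources do not give and which was taken as log2, and the authors' centring put each row around a baseline of its own, likewise unknown. Values are distances from that baseline, so that levels were not compared between genes and absence cannot be read from them. The 4 array medians over all rows lay between -0.02 and 0.06. Of 13 bulge markers 9 lay above their baselines on every array, among them Cd34 of the sort (1.75 to 4.25), Lgr5 (1.22 to 3.70) and, close to 0, Krt15 (0.03 to 0.26). The other 4 lay below it on at least 1 array, with Itga6 of the sort at or below 0.08 throughout, Krt14 between -0.50 and 0.12, Krt5 between -0.31 and 0.29 and Npnt between -0.51 and 1.83. With the baseline unknown, these values do not settle the identity of the cells. Because RNA came from bulk samples, fewer cells of a type and less RNA per cell cannot be told apart.

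The 49 genes differed more between the CSA arrays than between the vehicle arrays, with median absolute differences of 0.66 and 0.35. Over all genes these medians were 0.23 and 0.27. Across all genes the row-centred values of the CSA arrays correlated at 0.055 (Pearson) and those of the vehicle arrays at 0.172. CSA replicate 2 and vehicle replicate 2 correlated at 0.545, and every other pair of arrays between 0.015 and 0.172. CSA replicate 1 stood above CSA replicate 2 for 42 of the 49 genes (85.7%), against 56.4% of all genes. Vehicle replicate 1 stood above vehicle replicate 2 for 31 (63.3%), against 61.9% of all genes. Without the heat shock genes, CSA replicate 1 held the highest of the 4 values for 25 of 40 genes (62.5%, against 21.1% of all genes). CSA replicate 2 held the lowest for 19 of 40 (47.5%, against 32.8% of all genes). These shares describe the 4 arrays, and no test was made of them.

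**Figure D1:**
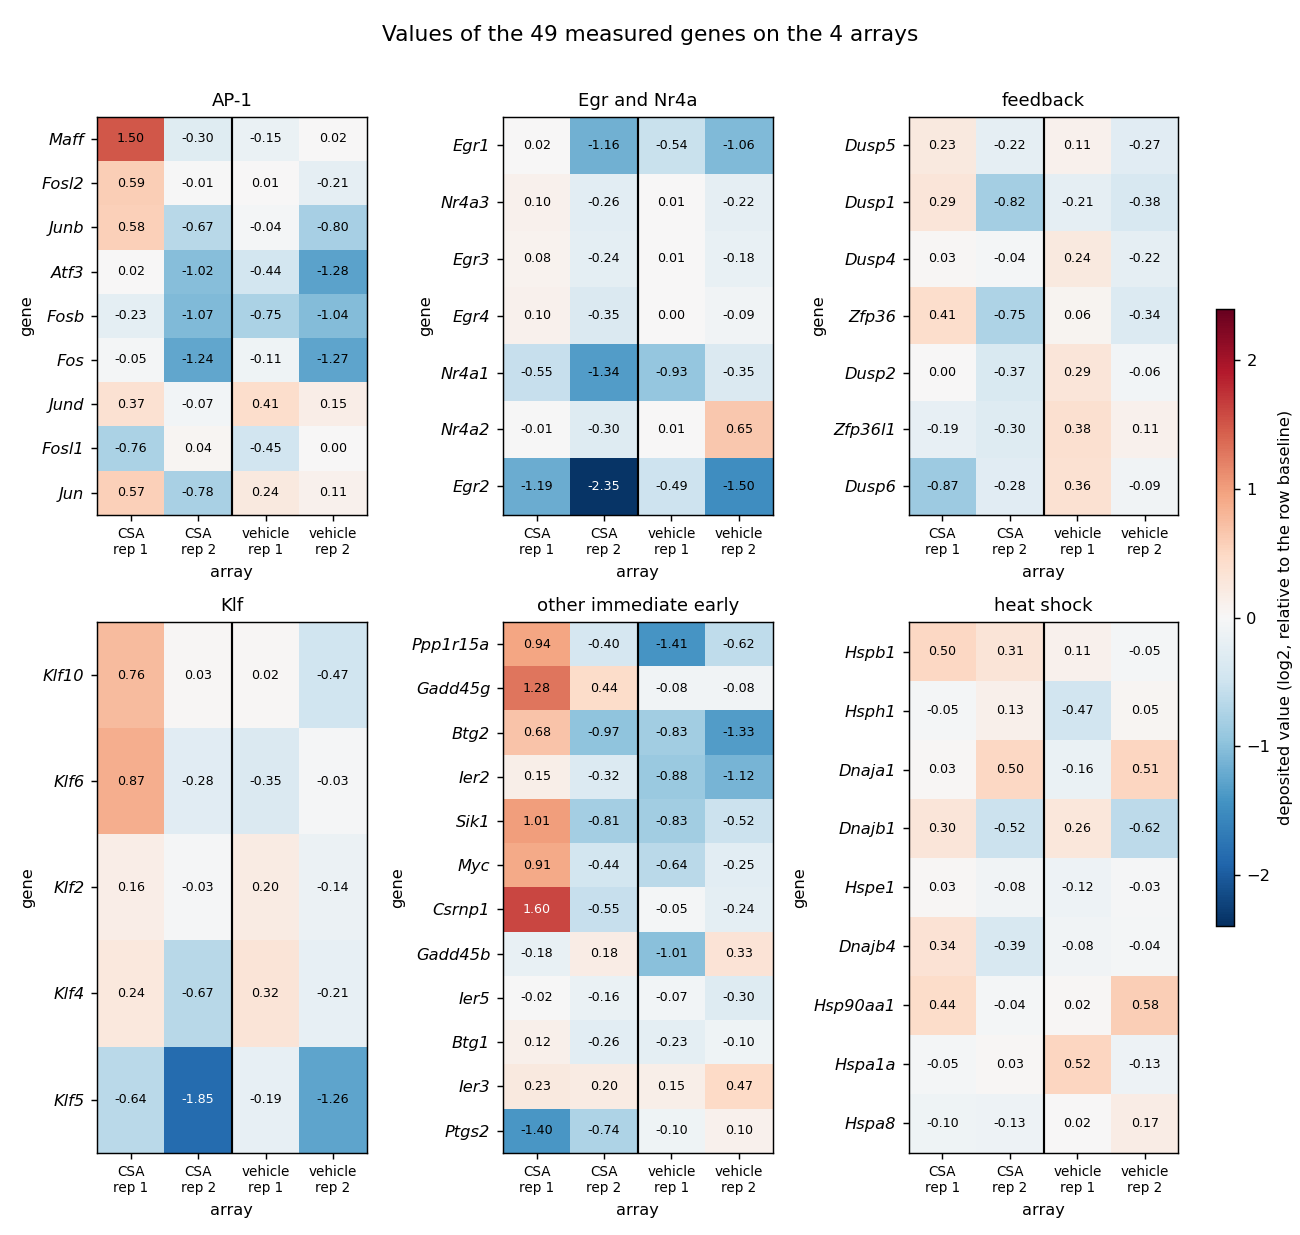
Values of the 49 measured genes (rows, by role, ordered within a role by the CSA minus vehicle difference) on the 2 CSA and the 2 vehicle arrays (columns), in log2 units relative to each row's baseline; red is above and blue below it. The CSA replicate 1 column is red for most early genes and the CSA replicate 2 column blue, as for Csrnp1 at 1.60 and -0.55.

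The median difference between the CSA arrays, replicate 1 minus replicate 2, was 0.76 over the 40 genes that are not heat shock genes and 0.04 over all genes. Between the vehicle arrays the same medians were 0.23 and 0.09. For 11 of the 40 genes (27.5%) CSA replicate 1 lay above and CSA replicate 2 below both vehicle arrays, against 7.58% of all genes; the opposite held for Fosl1 alone (2.5%, against 8.22%). The 9 heat shock genes had a median difference between the CSA arrays of 0.11 and between the vehicle arrays of -0.09. Taken without sign, their medians were 0.19 between the CSA arrays and 0.51 between the vehicle arrays, the larger on the vehicle side.

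Other genes moved between the CSA arrays as well. All 13 bulge markers were lower on CSA replicate 1 than on CSA replicate 2, with medians of 0.13 and 0.91, against 0.60 and 1.18 on vehicle replicates 1 and 2. Cd34 of the sort was 1.75 and 3.60 with CSA, against 4.05 and 4.25 with vehicle, a difference of -1.47. Like Cd200 (-0.80) and Postn (-0.79), it was at least 1.5-fold lower in CSA without overlap. Of the 13 bulge markers 10 were lower and 3 higher in CSA. Of 8 markers of differentiated epidermis 2 were higher on CSA replicate 1, and the list's medians were -1.17 and -0.78 on CSA replicates 1 and 2, against 0.43 and -0.49 on vehicle replicates 1 and 2. Fibroblast, endothelial, immune, melanocyte and sebaceous markers (32 measured) had list medians between -0.20 and 0.21 on every array. Single markers moved more. Cd3g was 0.55 and 0.14 with CSA, against -0.69 and -0.20 with vehicle. Scd1 was -0.12 and -0.15 with CSA, against -0.34 and -1.72 with vehicle, and Mitf lay between 0.76 and 2.02. In each of these lists more markers were lower than higher in CSA. The part of all these markers in the differences between arrays was not tested.

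**Figure D2:**
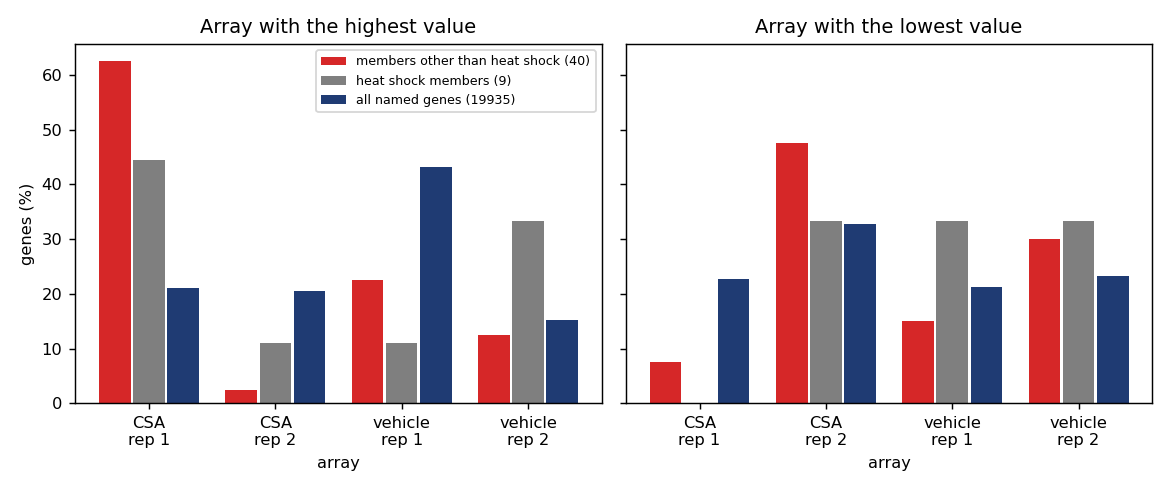
Share of genes (%) that had their highest value (left) or lowest value (right) on each array, for the 40 genes that are not heat shock genes, the 9 heat shock genes and all 19935 named genes. CSA replicate 1 was highest for 62.5% of the 40 genes and for 21.1% of all genes.

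None of the 49 genes passed the test of CSA against vehicle. With limma, 0 of 19935 genes passed an adjusted p of 0.05 (0%), and the smallest adjusted p of any of the 49 was 0.999. An unadjusted p under 0.05 was reached by 3 of the 49, Ier2, Ptgs2 and Gadd45g, in a background of 2.83% of all genes. An exact permutation test of 2 arrays against 2 cannot go below 0.333. The 49 genes had a median difference of 0.04, with 30 higher and 19 lower in CSA (32 higher after the arrays were centred and 28 after quantile normalization), while the median over all genes was -0.04 and 41.1% of them were higher. Single arrays turned this direction: without CSA replicate 1 only 13 of the 49 were higher and the median was -0.17, and without vehicle replicate 2 they were 22 and -0.02. Without CSA replicate 2 there were 38 higher and a median of 0.21, and without vehicle replicate 1 there were 32 and 0.12.

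The groups stood at least 1.5-fold apart without overlap for 6 of the 49 genes, against 5.9% of all genes. Higher in CSA by this count were Ier2, Gadd45g, Ppp1r15a and Klf10 (4 genes, against 3.91% of all genes), and lower were Ptgs2 and Dusp6 (2 genes, against 1.99%). With no threshold of size the arrays did not overlap for 10 of the 49 (26.3% of all genes), 5 higher (10.9%) and 5 lower (15.4%). The remaining 4 were Hspb1, higher, and Nr4a2, Zfp36l1 and Hspa8, lower. The 6 genes that stood 1.5-fold apart kept their signs whichever array was left out. Without CSA replicate 1 the differences of Gadd45g, Klf10 and Dusp6 were 0.52, 0.25 and -0.41, less than 1.5-fold. So were those of Dusp6 without vehicle replicate 1 (-0.48) and of Klf10 without vehicle replicate 2 (0.37). Without CSA replicate 2 all 6 lay beyond 1.5-fold. All 8 markers of differentiated epidermis and 10 of the 13 bulge markers were lower in CSA as well, and their part in these counts was not tested.

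**Figure D3:**
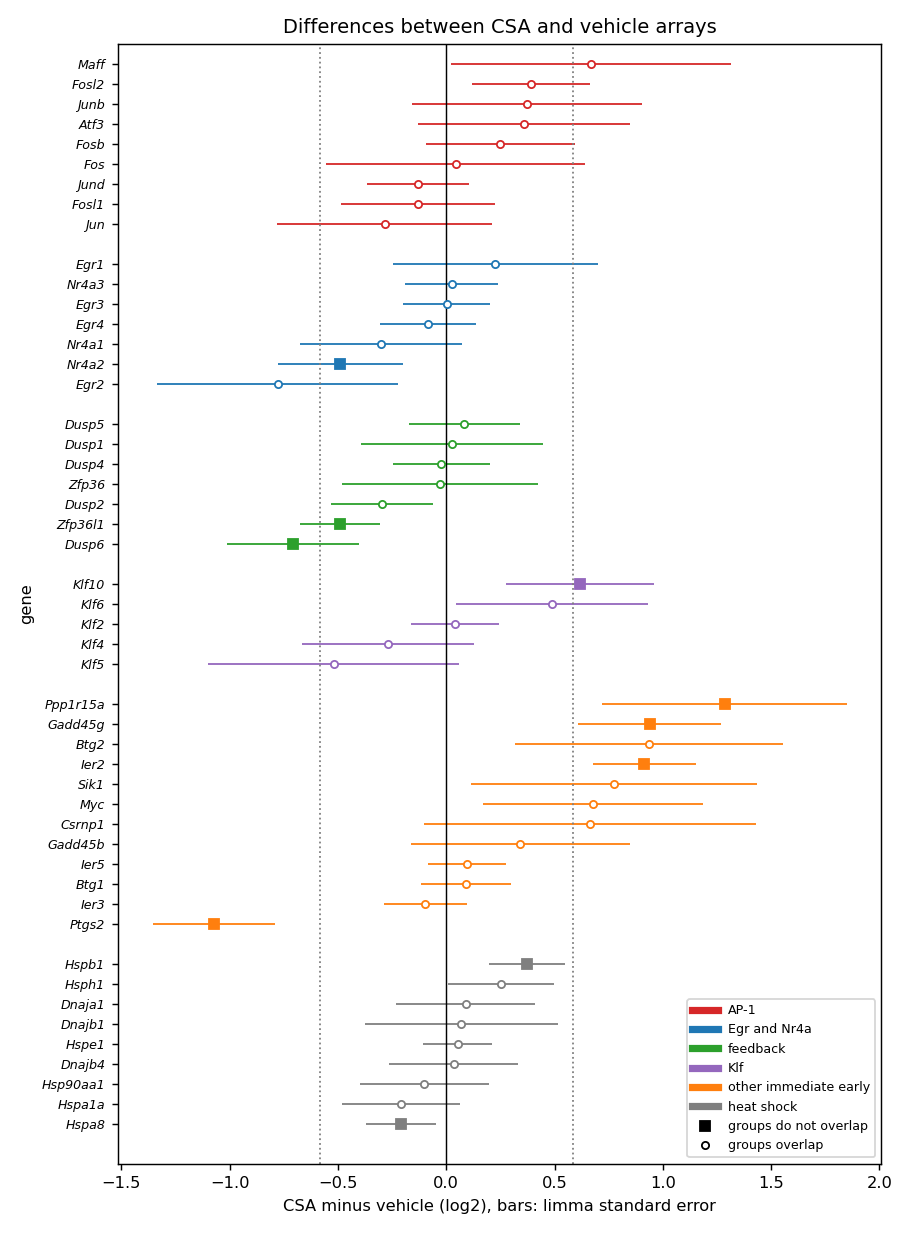
Difference between the CSA and vehicle means (log2, x axis) for each of the 49 genes (y axis), coloured by role, with limma's standard error as bars; filled squares are genes whose 2 CSA arrays did not overlap the 2 vehicle arrays, and dotted lines mark 1.5-fold. Ppp1r15a lies farthest to the right at 1.29 and Ptgs2 farthest to the left at -1.07.

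Among the AP-1 genes the groups overlapped for all 9, with 6 higher and 3 lower in CSA and a median difference of 0.25. Fos, the first partner of Jun to appear after a stimulus, was -0.05 and -1.24 on the CSA arrays, against -0.11 and -1.27 on the vehicle arrays. Both groups thus held a high and a low array at the same levels, and the means lay 0.04 ± 0.60 apart (the ± value, here and below, is limma's moderated SE with 2 arrays in each group). Fosb, a close relative of Fos, was -0.23 and -1.07 with CSA, against -0.75 and -1.04 with vehicle. Fosl2, a later-acting relative, was 0.59 and -0.01 with CSA, against 0.01 and -0.21 with vehicle (0.39 ± 0.27, and 0.09 without CSA replicate 1). Fosl1, a relative known from migrating keratinocytes, ran the other way between the CSA arrays, at -0.76 and 0.04, against -0.45 and 0.00 in vehicle.

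Junb, which restrains the growth-promoting action of Jun, was 0.58 and -0.67 on the CSA arrays, against -0.04 and -0.80 on the vehicle arrays. Jun itself was 0.57 and -0.78 with CSA, against 0.24 and 0.11 with vehicle, with both vehicle arrays between the CSA arrays. Jund, the Jun family member least bound to stimulation, had a range over the arrays of 0.48, the smallest of the 9. Atf3, a stress-induced factor that pairs with Jun, was 0.02 and -1.02 with CSA, against -0.44 and -1.28 with vehicle (0.36 ± 0.49). Maff, a small Maf protein without an activation domain, was 1.498 and -0.30 with CSA, against -0.15 and 0.02 with vehicle (0.67 ± 0.65). CSA replicate 1 alone stood high for Maff, and without it the difference was -0.23. The median of the 9 was -0.23 without CSA replicate 1 and 0.67 without CSA replicate 2, while leaving out vehicle replicates 1 and 2 in turn gave 0.50 and -0.0043.

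Some genes of the Egr and Nr4a families, zinc finger factors and orphan nuclear receptors, are known in T cells to need calcium and calcineurin for their induction. All 7 measured genes of these families had their lowest value on CSA replicate 2, which was the lowest array for 32.8% of all genes. CSA replicate 1 was the highest array for 4 of them, Egr1, Egr3, Egr4 and Nr4a3. The groups were not apart by the test for any, with 3 higher and 4 lower in CSA and a median difference of -0.08. That median was -0.36 without CSA replicate 1 and 0.14 without CSA replicate 2.

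Egr2, also known from nerve myelination and T cell tolerance, was -1.19 and -2.35 on the CSA arrays, against -0.49 and -1.50 on the vehicle arrays. Its difference was -0.78 ± 0.56, and CSA replicate 1 lay above vehicle replicate 2. It was -1.36 and -0.20 when CSA replicates 1 and 2 were left out in turn, and -0.28 and -1.28 when vehicle replicates 1 and 2 were. Egr1, the member most widely used as a marker of early induction, was 0.02 and -1.16 with CSA, against -0.54 and -1.06 with vehicle (0.23 ± 0.47). Egr4 was 0.10 and -0.35 with CSA, against 0.0043 and -0.09 with vehicle (-0.08 ± 0.22). Egr3 and Egr4 ranged over 0.32 and 0.45 across the 4 arrays, less than the median range of 0.50 over all genes.

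Nr4a2 was the single gene of the 7 whose groups did not overlap. It stood at -0.01 and -0.30 on the CSA arrays, against 0.01 and 0.65 on the vehicle arrays, and differed by -0.49 ± 0.29. CSA replicate 1 and vehicle replicate 1 were nearly level for it, and without vehicle replicate 2 the difference was -0.17. Nr4a1, the receptor also known as Nur77 and a gene of T cell activation, was -0.55 and -1.34 with CSA, against -0.93 and -0.35 with vehicle (-0.30 ± 0.37). Nr4a3 differed by 0.03 ± 0.21.

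**Figure D4:**
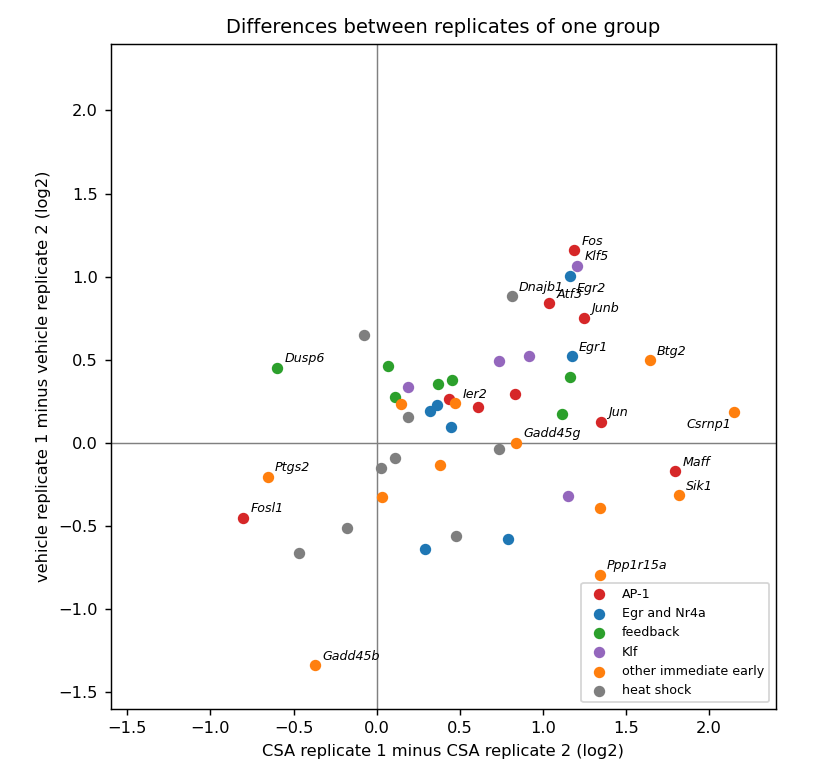
Difference between the replicates of one group for each of the 49 genes, with CSA replicate 1 minus CSA replicate 2 on the x axis and vehicle replicate 1 minus vehicle replicate 2 on the y axis (both log2), coloured by role. Fos, Klf5, Egr2, Atf3 and Junb lie to the upper right, high on replicate 1 of both groups, while Csrnp1, Maff and Sik1 lie to the right near or below 0 on the y axis.

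Feedback regulators were lower in CSA for 5 of 7 genes, with a median difference of -0.03. Dusp6, the cytoplasmic phosphatase that removes phosphate from ERK and a common readout of that pathway, was -0.87 and -0.28 on the CSA arrays, against 0.36 and -0.09 on the vehicle arrays. Both CSA arrays lay below both vehicle arrays, by -0.71 ± 0.30 between the means. Leaving out CSA replicate 1 gave -0.41 and leaving out vehicle replicate 1 gave -0.48. Zfp36l1, which binds AU-rich elements and speeds the decay of mRNAs, stood at -0.19 and -0.30 on the CSA arrays, against 0.38 and 0.11 on the vehicle arrays. The means were -0.49 ± 0.18 apart, a value that lay between -0.35 and -0.63 whichever array was left out.

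Dusp1, the nuclear phosphatase induced together with Fos, was 0.29 and -0.82 with CSA, against -0.21 and -0.38 with vehicle. Zfp36, the relative of Zfp36l1 that is itself an immediate early gene, was 0.41 and -0.75 with CSA, against 0.06 and -0.34 with vehicle. For both genes the vehicle arrays again fell between the CSA arrays, and the differences were 0.03 ± 0.42 and -0.03 ± 0.45. The differences turned to -0.044 for Dusp1 after quantile normalization and to 0.0025 for Zfp36 after centring.

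Further MAP kinase phosphatase genes stood close to their baselines. Dusp2 was 0.0001 and -0.37 with CSA, against 0.29 and -0.06 with vehicle (-0.30 ± 0.23). Dusp5 was 0.23 and -0.22 with CSA, against 0.11 and -0.27 with vehicle (0.08 ± 0.26). Dusp4 was 0.03 and -0.04 with CSA, against 0.24 and -0.22 with vehicle (-0.02 ± 0.22). The groups overlapped for each of them. For the 7 together, the median was -0.48 when CSA replicate 1 was left out and 0.01 when CSA replicate 2 was.

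The Klf genes encode zinc finger factors, of which Klf4 acts in the epidermal barrier and Klf5 in basal keratinocytes. Klf10, induced by TGF-beta, was 0.76 and 0.03 on the CSA arrays, against 0.02 and -0.47 on the vehicle arrays. The groups did not overlap, though CSA replicate 2 exceeded vehicle replicate 1 by less than 0.01, and the difference was 0.62 ± 0.34. Leaving out CSA replicate 1 gave 0.25, and leaving out vehicle replicate 2 gave 0.37. Klf6 was 0.87 and -0.28 with CSA, against -0.35 and -0.03 with vehicle (0.49 ± 0.44), with CSA replicate 1 alone standing high.

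For Klf5 and Klf4 the replicates of each group lay farther apart than the group means. Klf5 was -0.64 and -1.85 with CSA, against -0.19 and -1.26 with vehicle (-0.52 ± 0.58). Klf4 was 0.24 and -0.67 with CSA, against 0.32 and -0.21 with vehicle (-0.27 ± 0.40). Klf2, known from endothelial cells and resting T cells, was 0.16 and -0.03 with CSA, against 0.20 and -0.14 with vehicle (0.04 ± 0.20). The median of the 5 differences was 0.04. It was -0.09 and 0.19 when CSA replicates 1 and 2 were left out in turn, and 0.21 and -0.13 when vehicle replicates 1 and 2 were.

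The other immediate early genes held most of the larger differences. Of 12 genes 10 were higher in CSA, and their median difference was 0.67, against -0.04 over all genes. The median was 0.02 without CSA replicate 1 and 1.25 without CSA replicate 2. Leaving out vehicle replicate 1 gave 0.55, and leaving out vehicle replicate 2 gave 0.74.

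Ppp1r15a, also called Gadd34, directs a phosphatase to eIF2 alpha and so restarts translation after stress. It was 0.94 and -0.40 on the CSA arrays, against -1.41 and -0.62 on the vehicle arrays. Both CSA arrays were higher, by 1.29 ± 0.56 between the means or 2.44-fold (limma unadjusted p = 0.083). The difference was 0.61 without CSA replicate 1 and 1.96 without CSA replicate 2. Ier2, a small nuclear protein of early induction, was 0.15 and -0.32 with CSA, against -0.88 and -1.12 with vehicle. The arrays of both groups lay close together and apart from the other group, with a difference of 0.92 ± 0.24 (limma unadjusted p = 0.0176, adjusted p = 0.999). It lay between 0.68 and 1.15 whichever array was left out.

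Gadd45g, of a stress-sensor family that acts on p38 and JNK kinases, was 1.28 and 0.44 on the CSA arrays, against -0.08 and -0.08 on the vehicle arrays. The vehicle arrays were level and both CSA arrays higher, with a difference of 0.94 ± 0.33 (limma unadjusted p = 0.0447) that was 0.52 without CSA replicate 1. Its relative Gadd45b was -0.18 and 0.18 with CSA, against -1.01 and 0.33 with vehicle, with vehicle replicate 1 alone standing low. The means were 0.34 ± 0.51 apart, and -0.33 without that array.

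Ptgs2, which encodes the inducible cyclooxygenase of prostaglandin synthesis and is a known NFAT target, went the other way. It was -1.40 and -0.74 on the CSA arrays, against -0.10 and 0.10 on the vehicle arrays. Both CSA arrays were lower, by -1.07 ± 0.28 between the means or 0.475-fold (limma unadjusted p = 0.0184, adjusted p = 0.999). The difference lay between -1.40 and -0.74 whichever array was left out.

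**Figure D5:**
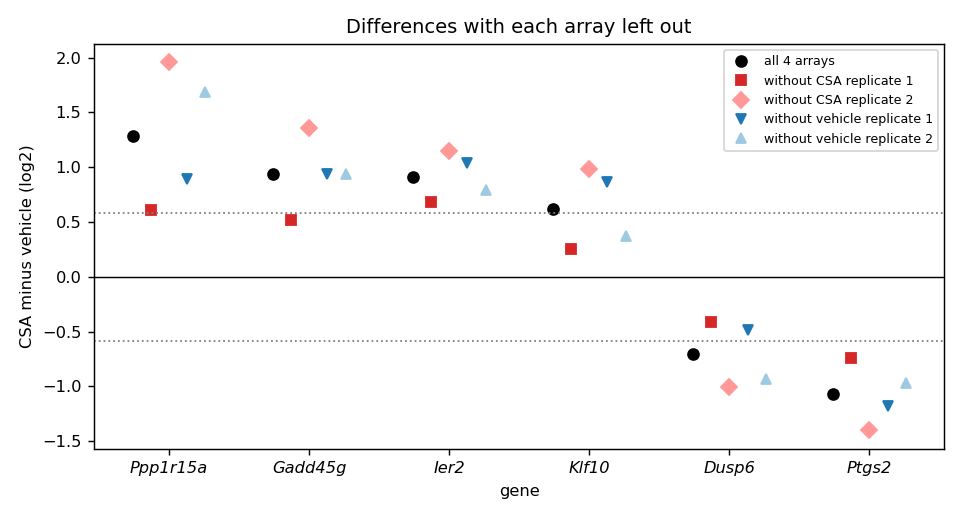
Difference between the CSA and vehicle means (log2, y axis) for the 6 genes that stood 1.5-fold apart without overlap (x axis), with all 4 arrays and with each array left out; dotted lines mark 1.5-fold. The signs held throughout, and without CSA replicate 1 Gadd45g, Klf10 and Dusp6 lay within the dotted lines, at 0.52, 0.25 and -0.41.

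A further 4 genes were high on CSA replicate 1 only. Csrnp1, a nuclear protein induced by Axin, was 1.60 and -0.55 with CSA, against -0.05 and -0.24 with vehicle (0.66 ± 0.77). Sik1, a kinase that restrains CRTC co-activators of CREB, was 1.01 and -0.81 with CSA, against -0.83 and -0.52 with vehicle (0.77 ± 0.66). Btg2, which slows the cell cycle, was 0.68 and -0.97 with CSA, against -0.83 and -1.33 with vehicle (0.94 ± 0.62). Myc, the growth-promoting factor, was 0.91 and -0.44 with CSA, against -0.64 and -0.25 with vehicle (0.68 ± 0.51). Without CSA replicate 1 the differences were -0.41 for Csrnp1, -0.14 for Sik1, 0.11 for Btg2 and 0.01 for Myc.

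Ier3, Ier5 and Btg1 varied least among these 12. Their ranges over the 4 arrays were 0.33, 0.29 and 0.38, and their differences were -0.10 ± 0.19, 0.10 ± 0.18 and 0.09 ± 0.21.

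Heat shock genes differed little between CSA and vehicle. Of 9 measured genes 6 were higher and 3 lower in CSA, with a median difference of 0.05, and 0 stood 1.5-fold apart without overlap. Hspb1, a small heat shock protein abundant in keratinocytes, was 0.50 and 0.31 on the CSA arrays, against 0.11 and -0.05 on the vehicle arrays. Both CSA arrays were higher, by 0.37 ± 0.18 between the means, and a second row of Hspb1 gave 0.48 and 0.31 with CSA, against 0.05 and -0.04 with vehicle. Its difference lay between 0.28 and 0.47 whichever array was left out.

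Hspa8, the constitutive member of the Hsp70 family, was -0.10 and -0.13 on the CSA arrays, against 0.02 and 0.17 on the vehicle arrays (-0.21 ± 0.16). A second of its 3 rows read likewise at -0.25, while the third was 0.23 and -0.89 with CSA, against 0.25 and 0.05 with vehicle, with overlap. Hspa1a, the stress-inducible Hsp70, was -0.05 and 0.03 with CSA, against 0.52 and -0.13 with vehicle (-0.21 ± 0.27). The row it shares with Hspa1b was -0.26 and 0.45 with CSA, against 0.66 and 0.03 with vehicle, so the groups overlapped in both rows. Signal from these near-identical copies cannot be assigned to one of them with certainty.

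Hsp90aa1, the inducible Hsp90 chaperone, was 0.44 and -0.04 with CSA, against 0.02 and 0.58 with vehicle, and its 3 rows differed by -0.10, 0.002 and 0.04. Hsph1, an exchange factor of Hsp70, was -0.05 and 0.13 with CSA, against -0.47 and 0.05 with vehicle (0.25 ± 0.24). Its difference was -0.005 without vehicle replicate 1. Dnajb1, an Hsp40 co-chaperone, was 0.30 and -0.52 with CSA, against 0.26 and -0.62 with vehicle, so that each group held 1 high and 1 low array, as for Fos. Its relatives Dnaja1 and Dnajb4 differed by 0.09 ± 0.32 and 0.03 ± 0.30, and Hspe1, the mitochondrial Hsp10, by 0.05 ± 0.16.

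Further genes of these pathways were followed as 5 lists, and 0 of the measured genes of any list passed limma's test at an adjusted p of 0.05. Of 28 other early response genes 19 were higher and 9 lower in CSA (median 0.17), and CSA replicate 1 stood above CSA replicate 2 for 23. Nfil3, a bZIP repressor, was 2.19 and 0.71 with CSA, against -0.80 and 0.47 with vehicle (1.62 ± 0.70). Nfkbia, the inhibitor that NF-kappaB induces, was 0.35 and 0.01 with CSA, against -1.09 and -0.25 with vehicle (0.85 ± 0.35). Ccn1, a matrix protein of early induction, was -0.19 and -0.21 with CSA, against 0.40 and 0.20 with vehicle (-0.50 ± 0.17). The arrays did not overlap for any of these 3. Nfil3 differed by 0.87 without CSA replicate 1 and 0.98 without vehicle replicate 1, and Nfkbia by 0.43 without vehicle replicate 1, while Ccn1 lay between -0.60 and -0.40 whichever array was left out.

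In the MAP kinase relay 14 of 22 genes had a row, 9 higher and 5 lower in CSA, with a median of 0.20. Mapk9, which encodes the Jun kinase JNK2, was 0.80 and 0.41 with CSA, against -0.94 and -0.06 with vehicle (1.10 ± 0.37). Map2k6, which activates p38, was 0.07 and -0.32 with CSA, against -1.38 and -0.70 with vehicle (0.91 ± 0.31). Braf, a kinase above ERK, was 1.05 and 0.56 with CSA, against -0.29 and 0.29 with vehicle (0.80 ± 0.30). Vehicle replicate 1 was the lowest array for all 3, and without it the differences were 0.66, 0.57 and 0.52.

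Among 16 regulators of the SRF, CREB and MEF2 kind 8 were higher and 8 lower in CSA (median -0.03). Elk4, a partner of serum response factor, differed by 0.47 ± 0.19, and the CREB co-activator genes Crtc1 and Crtc2 by -0.35 ± 0.21 and 0.54 ± 0.42. Without CSA replicate 1 Crtc2 differed by 0.09, and without vehicle replicate 1 Crtc2 differed by 0.19 and Crtc1 by -0.15. Of 15 other AP-1, Maf and ATF genes 4 were higher and 11 lower (median -0.15). Atf1, a relative of CREB, was 0.46 and 0.40 with CSA, against -0.12 and -0.18 with vehicle (0.58 ± 0.16), with both groups close together. Atf7 and the oxidative stress factor gene Nfe2l2 differed by -0.50 ± 0.28 and -0.87 ± 0.49, and without CSA replicate 1 by -0.17 and -0.21. Of 39 heat shock factors and other chaperones 21 were higher and 18 lower (median 0.05), with Bag5 at 0.55 ± 0.28, Dnajb5 at 0.40 ± 0.25 and Hspb3 at -0.32 ± 0.21, and 0 of the 39 were 1.5-fold apart without overlap. Without CSA replicate 1 Bag5 differed by 0.30 and Dnajb5 by 0.15, and without vehicle replicate 1 Hspb3 differed by -0.11.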

How the data were processed

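RNA of 4 sorted bulge samples went onto one-colour arrays, after 1 round of amplification from 20 ng into biotin-labelled cDNA, per the labels' protocols. The deposited values are log2 by assumption, centred per row by the authors on an unstated baseline; the sources used here do not state how the arrays were read, background-corrected and normalized. The build mm8 is named in the submitters' processing notes. No signal over background was at hand, so whether a gene was detected at all cannot be said, also for genes that stayed near their baselines. The number of arrays limits the precision.

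Of 28815 rows 21780 named 1 gene, 1605 several and 5430 none. These rows gave 19935 genes. A gene with several rows was represented by the one with the highest mean over the 4 arrays. For 21689 of the rows naming 1 gene the identifier matched RefSeq on GRCm38.p6, and 4 older symbols in the lists were updated through that table. RefSeq promoter windows were searched for motifs on both strands.

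CSA and vehicle were compared with limma 3.58.1 (R 4.3.3), lmFit and eBayes without a trend or block, with two-sided p-values adjusted by Benjamini-Hochberg for all 19935 genes and called at 0.05. Genes at least 1.5-fold apart whose arrays did not overlap were counted as well. The labels call the replicates biological without naming animals, so p-values measure the spread between these samples. The code was tested on simulated data. The alternatives were centred arrays, quantile normalization, a replicate block, the mean of a gene's rows, a filter at the 25th percentile of the mean, eBayes with a trend, and each array left out.

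The genes and lists were chosen with earlier results of these data known. Values on every array are given for the 5 genes of each role with the smallest limma p and for genes 1.5-fold apart without overlap. From each further list the 3 genes with the smallest p are named. The arrays of Fos, Jun, Fosl1, Dusp1, Zfp36, Gadd45b, Myc, Sik1, Csrnp1, Dnajb1 and the shared rows are given outside that rule, chosen after their values were seen.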

Additional observations from a re-analysis of the deposited data

Results flagged for a closer look

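Rows that name a heat shock gene together with others entered none of the counts, medians and tests above. Both rows naming Hspa8 along with the small nucleolar RNA genes Snord14c and Snord14d were higher on both CSA arrays than on both vehicle arrays. The first read 0.59 and -0.05 on the CSA arrays, against -0.36 and -1.47 on the vehicle arrays, a difference between the means of 1.19. The other read 0.55 and -0.02 on the CSA arrays, against -0.29 and -1.50 on the vehicle arrays, a difference of 1.16. The 3 rows naming Hspa8 alone differed by -0.21, -0.25 and -0.48. A row naming Dnaja1 along with Mir207 went the other way, at 0.04 and -0.34 with CSA, against 0.13 and 0.28 with vehicle. Its difference was -0.36 without overlap, while the rows naming Dnaja1 alone differed by 0.09 and 0.065. The shared rows were not tested, and which transcript they report was not tested either.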

How the results depend on the processing

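The count of 0 genes past limma's adjusted p of 0.05 held under every alternative run, over all genes and over the 49. Leaving out 1 array moved other results, and their lowest and highest values follow. Genes 1.5-fold apart without overlap numbered 1565 and 3371 (1177 with all arrays), of the 49 genes 10 and 18 (6 with all arrays). Part of this follows from comparing 1 array with 2, which overlap less. Genes at an unadjusted limma p under 0.05 numbered 381 and 1410 (565 with all arrays). Median differences were -0.36 and 0.14 for Egr and Nr4a, -0.17 and 0.14 for heat shock, -0.48 and 0.11 for feedback, and 0.016 and 1.25 for the other immediate early genes. The sign turned for 34 of the 49 genes when 1 array or another was left out: Fos (-0.55 and 0.64), Fosb (-0.17 and 0.67), Fosl1 (-0.53 and 0.27), Jun (-0.96 and 0.39), Junb (-0.25 and 1.00), Jund (-0.35 and 0.088), Atf3 (-0.16 and 0.88), Maff (-0.23 and 1.57), Egr1 (-0.36 and 0.81), Egr3 (-0.16 and 0.16), Egr4 (-0.31 and 0.14), Nr4a1 (-0.70 and 0.092), Nr4a3 (-0.16 and 0.21), Klf2 (-0.13 and 0.21), Klf4 (-0.72 and 0.19), Klf5 (-1.12 and 0.084), Klf6 (-0.086 and 1.07), Hspa1a (-0.53 and 0.12), Hsp90aa1 (-0.38 and 0.18), Hsph1 (-0.005 and 0.51), Hspe1 (-0.0015 and 0.11), Dnaja1 (-0.24 and 0.42), Dnajb1 (-0.37 and 0.51), Dnajb4 (-0.33 and 0.40), Dusp1 (-0.53 and 0.58), Dusp4 (-0.25 and 0.21), Dusp5 (-0.14 and 0.31), Zfp36 (-0.61 and 0.55), Ier3 (-0.26 and 0.067), Ier5 (-0.021 and 0.21), Btg1 (-0.10 and 0.28), Gadd45b (-0.33 and 1.01), Csrnp1 (-0.41 and 1.74) and Sik1 (-0.14 and 1.68). The cause was not tested.

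The filter at the 25th percentile tests fewer genes and kept 22 of the 49. It ranks genes by their mean distance from a row baseline that is unknown, so removal by it does not show low expression. With it 645 genes and 2 of the 49, Gadd45g and Klf10, stood 1.5-fold apart without overlap. Ier2, Ptgs2, Ppp1r15a and Dusp6 were removed by the filter. The median for Egr and Nr4a was then -0.49, the value of Nr4a2, the only gene of that role kept. For Klf it was 0.49, over Klf2, Klf6 and Klf10. Signs turned after quantile normalization for Fos (-0.026), Dnajb4 (-0.037), Dusp1 (-0.044) and Dusp4 (0.091), after centring for Dusp4 (0.0089) and Zfp36 (0.0025), and with all rows averaged for Atf7 (0.067). The same 6 of the 49 genes were 1.5-fold apart without overlap under centring, quantile normalization, averaged rows, the trend and the replicate block. With the replicate number as a block 914 genes had an unadjusted limma p under 0.05, and the smallest adjusted p was 0.866. The deviations of same-numbered arrays from their group means correlated at 0.236 across genes. With 2 arrays in a group the deviations of 1 pair mirror those of the other, so this is a single value. Nothing in the labels pairs the samples, and whether same-numbered arrays share a batch is not stated.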
